A study of Arabidopsis thaliana with 12 samples.

Results

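The comparison is gpl-1 against WT seedlings without ABA. Its 6 libraries, 3 of gpl-1 and 3 of WT, were chosen by the titles and genotypes of the sample records from the 12 libraries of the study. The gpl-1 plants are Col-0 seedlings that carry a CRISPR-Cas9 deletion in GPL (AT3G47850), and the WT plants are Col-0. Both groups were whole seedlings, 2 weeks old, grown on MS medium with sucrose in 16 h of light and 8 h of dark at 23°C. The other 6 libraries are gpl-1 and WT seedlings given ABA for 2 h, and they enter here only through the shared estimate of spread and the test of the interaction. The methods describe seedlings pooled into each sample, and gpl-1 is a single allele, so its values do not separate the allele from the line.

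GPL is the Arabidopsis counterpart of GPS2, a subunit of the animal nuclear receptor corepressor. Such corepressors bring histone deacetylases to chromatin and keep target genes low, and the study places GPL with HOS15 and HDA6 in a repressor of ABA-responsive genes. GPL spans chr3:17654129-17656013 on the minus strand of the RefSeq assembly TAIR10.1, with exons at the same places in the annotation the authors counted over, apart from the end of the last exon. The comparison without ABA asks how the seedling transcriptome differs before the hormone is given.

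The deposited files give counts of read pairs per gene biotype, the class that an annotation gives a gene, for 9 biotypes. Values per gene were not used here, so neither the genes within a biotype nor the level of GPL itself were compared, and the genotype labels and the seedling tissue were not checked against expression. The libraries held 34329165, 34239549 and 26291240 counts in gpl-1 and 31092645, 31178371 and 24916053 counts in WT, for replicates 1, 2 and 3. Each count was divided by its library total and scaled to counts per 1000000 (CPM). A CPM is therefore a share, and a lower share of a biotype cannot be told apart from more RNA of the others.

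Replicates 1 and 2 of a group were nearly the same, and replicate 3 stood apart. A chi-square test was made over the 9 biotypes. For replicates 1 and 2, its statistic per degree of freedom was 1.55 in gpl-1 and 0.91 in WT. Both values lay below an upper limit of 1.94. If libraries differ by random counting error only, 95% of their pairs are expected to fall below this limit. Against replicate 3 the statistic was at least 1921 in gpl-1 and at least 3935 in WT. The difference between replicates 1 and 2 stayed within the range of sampling noise, and they were counted as 1 sample, so that each group has n = 2, and every result is given for both samples. No source says that the samples came from separate cultures, and the p-values measure only the spread between these samples.

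Structural and regulatory RNAs other than mRNA work without being translated. Ribosomal RNA (rRNA) forms the core of ribosomes, tRNA carries amino acids to them, small nucleolar RNA (snoRNA) guides chemical modification of rRNA, small nuclear RNA (snRNA) forms the spliceosome, and miRNA silences matching mRNAs. Transposable elements are mostly kept silent by chromatin. The libraries were recorded as polyA RNA, whereas mature rRNA, tRNA, snoRNA and snRNA mostly lack a polyA tail, so their counts are the part that entered such libraries and not their level in the cell.

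The snoRNA biotype was the one whose shares did not overlap between the genotypes, and its sequences are shown for what the 71 exons share. Most carry the conserved boxes of C/D snoRNAs, which guide methylation of rRNA in eukaryotes. On the exon's own strand, box C (TGATGA) stood within the first 20 bases of 54 of the 71 exons and box D (CTGA) within the last 20 bases of 60, with both in 52 (73.2%). Both boxes were found in 0.138% of 156264 nuclear protein-coding exons, in 0 of 548 nuclear tRNA exons and in 0 of 191 miRNA exons measured the same way. Exons too short to hold both windows without overlap were left out of these numbers. The first snoRNA exon of at most 150 bases with both boxes on each of chromosomes 1, 3 and 5 is printed below from the RefSeq genome TAIR10.1, 5′ to 3′, with boxes C and D in capitals. These 3 examples were chosen by position after the values were seen, and none of them has a count of its own. AT1G03502 lies at chr1:875358-875471, AT3G01313 at chr3:104687-104769 and AT5G13225 at chr5:4222003-4222085, all on the minus strand.
AT1G03502: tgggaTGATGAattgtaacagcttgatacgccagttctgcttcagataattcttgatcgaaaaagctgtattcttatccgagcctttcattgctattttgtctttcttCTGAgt
AT3G01313: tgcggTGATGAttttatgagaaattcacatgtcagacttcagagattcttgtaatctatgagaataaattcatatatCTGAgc
AT5G13225: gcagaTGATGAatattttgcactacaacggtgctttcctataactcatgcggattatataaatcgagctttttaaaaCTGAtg

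snoRNA took 64.8, 63.6 and 68.3 CPM in gpl-1 (replicates 1, 2 and 3), against 52.1, 52.2 and 59.4 CPM in WT. All 3 gpl-1 libraries lay above all 3 WT libraries, which was the case for 1 of 9 biotypes (11.1%), and no biotype had all gpl-1 libraries below all WT libraries. The 95% Wilson interval, like every interval of a single library, covers counting error only. It was 61.0 to 66.4 CPM in the lowest gpl-1 library and 56.4 to 62.5 CPM in the highest WT library. These 2 intervals overlapped, which alone does not place the difference within counting error. The log2 ratio of gpl-1 over WT was 0.30 in replicates 1 and 2 summed (counting interval of 0.23 to 0.37). In replicate 3 it was 0.20 (counting interval of 0.10 to 0.30). Counting intervals do not cover the spread between samples. The mean was 66.2 ± 2.9 CPM in gpl-1 and 55.8 ± 5.1 CPM in WT (SD, n = 2 each). edgeR's quasi-likelihood test gave a log2 ratio of 0.25 ± 0.36 (SE) with an adjusted p of 0.89, so snoRNA did not pass the test. A two-sided exact permutation test over the 3 libraries of each group gave a p of 0.10, the smallest that 3 against 3 can give. That test counts replicates 1 and 2 as separate, and with n = 2 per group the smallest p is 0.33. The share of 11.1% of biotypes without overlap is near the permutation p of 0.10. The separation of snoRNA therefore does not stand out among 9 biotypes.

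**Figure D1:**
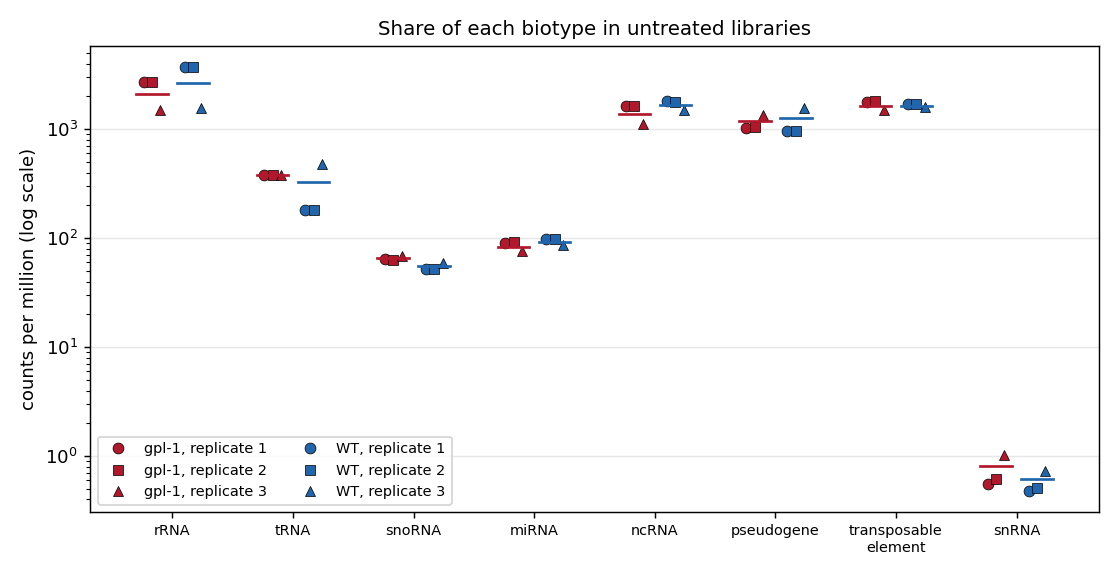
CPM of the 8 biotypes other than protein-coding in each untreated library, on a log axis, with gpl-1 in red left of WT in blue; marker shapes give the replicate, and lines the mean over the 2 samples of a group. The snoRNA points of gpl-1 (63.6 to 68.3 CPM) lie above those of WT (52.1 to 59.4 CPM), and the points of every other biotype overlap.

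The same fit was made for all biotypes and called 0 of 9 (0%) at an adjusted p under 0.05 between gpl-1 and WT. At an unadjusted p under 0.05 it also called 0, as did DESeq2 after adjustment and without it. The fit used 8 samples of all 4 groups, whose common spread was set mainly by the distance of replicate 3 from replicates 1 and 2. Its 95% intervals were wide and hold both higher and lower values for every biotype: the ratio of gpl-1 to WT lay between 0.65 and 2.16 for snoRNA, between 0.35 and 1.80 for rRNA and between 0.52 and 2.54 for tRNA. A missed threshold in such intervals does not show that the genotypes were alike. The direction was the same in replicates 1 and 2 and in replicate 3 for 6 of the 9 biotypes and opposite for 3.

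**Figure D2:**
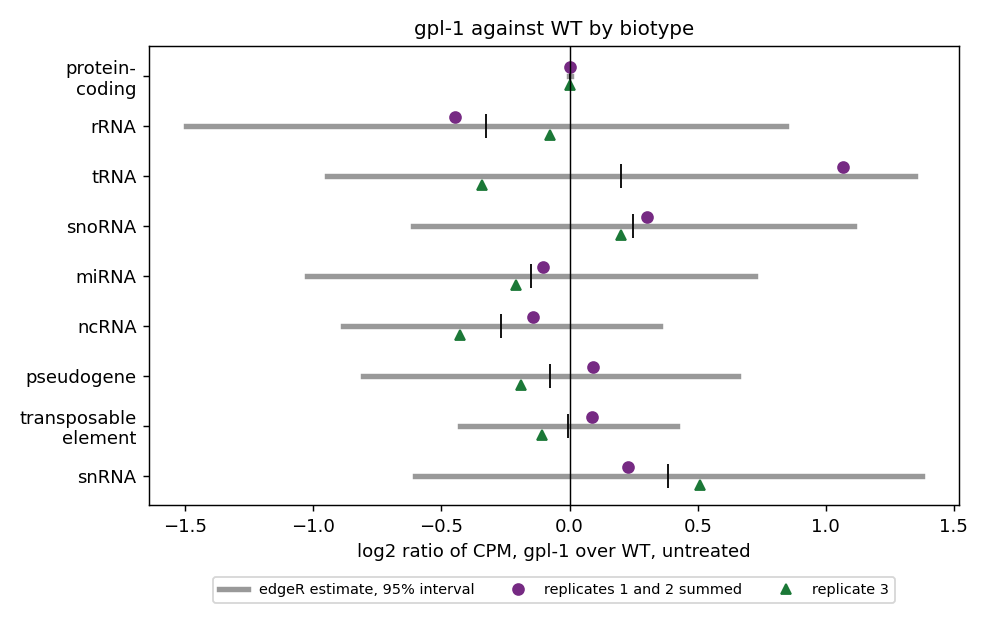
Log2 ratio of CPM in gpl-1 over WT without ABA for each biotype; purple circles are replicates 1 and 2 summed, green triangles replicate 3, and black ticks with grey bars the edgeR estimate with its 95% interval. All 9 intervals cross 0, and tRNA has the points farthest apart, at 1.07 and -0.34.

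tRNA was even in gpl-1 and uneven in WT. It took 379, 383 and 378 CPM in gpl-1, against 182, 181 and 479 CPM in WT. The highest gpl-1 library was 1.01 times the lowest, whereas the highest WT library was 2.64 times the lowest. WT libraries thus lay on both sides of the gpl-1 libraries. In replicates 1 and 2, tRNA was 2.10-fold higher in gpl-1 (log2 ratio of 1.07, with a counting interval of 1.04 to 1.10), and in replicate 3 its ratio was 0.790 (log2 ratio of -0.34, counting interval of -0.38 to -0.30). edgeR gave a log2 ratio of 0.20 ± 0.48 with an adjusted p of 0.89. Without WT replicate 3 the log2 ratio was 1.06, and its adjusted p was still above the threshold. The 697 tRNA exons have a median length of 72 bases, and 45 of them lie in the chloroplast genome and 21 in the mitochondrial genome.

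rRNA had the largest CPM among the biotypes other than protein-coding in 5 of the 6 libraries. It took 2718, 2731 and 1493 CPM in gpl-1, against 3717, 3711 and 1573 CPM in WT. The values in replicate 3 were low in both genotypes, and the groups overlapped. The ratio of gpl-1 to WT was 0.734 in replicates 1 and 2, and in replicate 3 the log2 ratio was -0.07, with a counting interval of -0.09 to -0.05. The edgeR log2 ratio was -0.33 ± 0.49, with an adjusted p of 0.89. Without WT replicate 3 it was -0.82, and without gpl-1 replicate 3 it was 0.044. Each of these 2 fits kept the low replicate 3 in only 1 of the genotypes, so neither value shows the direction between genotypes. rRNA made up 35.2%, 35.3% and 25.0% of the counts outside protein-coding genes in gpl-1 and 43.6%, 43.7% and 22.9% in WT.

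The rRNA biotype pools 15 exons of 3 genomes. Of its 17615 bases, 51.4% lie in the chloroplast (8 exons), 26.2% in the mitochondrion (3 exons) and 22.4% in the nucleus (4 exons, on chromosomes 2 and 3). Of the 12 nuclear and chloroplast exons, 10 have an identical copy in the annotation, and the 2 copies of the 18S rRNA exon differ at 2 of 1808 bases. Reads from such copies cannot be told apart, but both copies fall in the same biotype, so the sum holds. The short exons show which molecules are pooled and are printed from TAIR10.1, 5′ to 3′. The nuclear exon at chr2:5782-5945 (plus strand) is listed by RefSeq as 5S rRNA at AT2G01020 and is identical to AT3G41979, listed as 5.8S rRNA. These listings give different names to the same bases, so the 5S listing does not add a separate molecule. The chloroplast exons lie on the plus strand from 107599 to 107701 (rrn4.5S) and from 107949 to 108069, whose identical copy ArthCr091 is listed as 5S rRNA.
AT2G01020: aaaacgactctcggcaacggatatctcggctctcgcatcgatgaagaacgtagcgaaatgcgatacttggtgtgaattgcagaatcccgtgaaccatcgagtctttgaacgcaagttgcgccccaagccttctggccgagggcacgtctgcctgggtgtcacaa
rrn4.5S: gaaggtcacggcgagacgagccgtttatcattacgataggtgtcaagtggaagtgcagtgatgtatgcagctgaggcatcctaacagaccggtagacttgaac
copy of ArthCr091: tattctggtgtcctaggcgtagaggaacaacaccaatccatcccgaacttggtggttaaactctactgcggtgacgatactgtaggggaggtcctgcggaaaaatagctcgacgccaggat

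In the counts per biotype, the nuclear and organelle parts of rRNA could not be separated. The rRNA share therefore does not stand for cytosolic, chloroplast or mitochondrial ribosomes alone.

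miRNA and ncRNA were lower in gpl-1 in both samples, without passing the test. miRNA took 90.9, 92.0 and 75.6 CPM in gpl-1, against 99.0, 97.3 and 87.3 CPM in WT. In each replicate number the gpl-1 value was the lower one, but the groups overlapped, since gpl-1 replicates 1 and 2 lay above WT replicate 3. The log2 ratios were -0.10 in replicates 1 and 2 and -0.21 in replicate 3, and edgeR gave -0.15 ± 0.37 with an adjusted p of 0.89. Without gpl-1 replicate 3 the log2 ratio was -0.021. The annotated miRNA exons have a median length of 126 bases, longer than a mature miRNA, so these are counts over precursors.

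ncRNA, with a median exon length of 260 bases, took 1647, 1625 and 1118 CPM in gpl-1, against 1822, 1795 and 1504 CPM in WT. gpl-1 replicate 3 was the lowest of the 6 libraries, and the groups overlapped. The log2 ratios were -0.14 and -0.43 in replicates 1 and 2 and in replicate 3. edgeR gave -0.27 ± 0.26, the smallest p among the biotypes at 0.34 before adjustment and 0.89 after it. Without gpl-1 replicate 3 the log2 ratio was -0.018. Of the bases of ncRNA exons, 49.7% also lie in exons of other biotypes, mostly protein-coding, and featureCounts by default leaves out a fragment that touches 2 biotypes. The ncRNA share therefore stands for the part of these transcripts outside such overlaps.

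**Figure D3:**
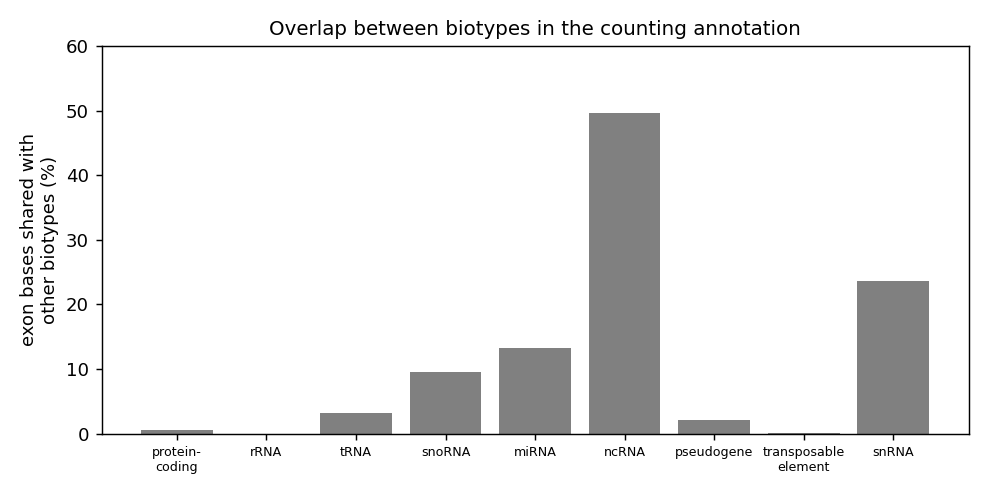
Percent of the exon bases of each biotype that also lie in exons of another biotype on either strand, in the annotation the authors counted over. The bar for ncRNA reaches 49.7%, that for snRNA 23.6%, and rRNA has none.

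The log2 ratios of transposable elements and pseudogenes had opposite signs in the 2 samples. Transposable elements took 1793, 1800 and 1487 CPM in gpl-1, against 1689, 1691 and 1604 CPM in WT. gpl-1 held both the highest and the lowest of the 6 values. The log2 ratio was 0.09 in replicates 1 and 2 and -0.11 in replicate 3, and edgeR gave -0.0046 ± 0.18 with an adjusted p of 0.98. The interval of the ratio ran from 0.743 to 1.34, the narrowest after that of protein-coding genes. A sum over 6260 distinct exons does not show single elements that rose or fell.

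Pseudogenes took 1025, 1041 and 1360 CPM in gpl-1, against 967, 971 and 1552 CPM in WT. Replicate 3 was the highest library of both genotypes. The log2 ratios were 0.09 and -0.19, and edgeR gave -0.08 ± 0.31 with an adjusted p of 0.92. Without WT replicate 3 the log2 ratio was 0.30.

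snRNA was near the limit of detection, with 19, 21 and 27 counts in gpl-1 and 15, 16 and 18 counts in WT. These correspond to 0.553, 0.613 and 1.03 CPM in gpl-1 and 0.482, 0.513 and 0.722 CPM in WT. The groups overlapped, and so did the 95% Wilson intervals of all libraries, which ran from 0.354 to 1.49 CPM in gpl-1 and from 0.292 to 1.14 CPM in WT over the lowest and highest bounds. A difference was not detectable at this depth (log2 ratio of 0.39 ± 0.42, adjusted p of 0.89 with edgeR). The biotype holds 13 exons, among them the U2 genes U2.2, U2.3, U2.4, U2.6 and U2.7, a U6 gene and the minor spliceosome gene U12.

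Protein-coding genes took 99.2% to 99.4% of the counts in gpl-1 and 99.1% to 99.3% in WT. Counts outside protein-coding genes were 0.772%, 0.774% and 0.598% of the library in gpl-1, against 0.853%, 0.850% and 0.686% in WT. The gpl-1 value was the lower one in each replicate number, but the ranges of the groups overlapped. The log2 ratio of the protein-coding share was 0.0011 in replicates 1 and 2 and 0.0013 in replicate 3, and edgeR gave 0.0012 ± 0.0017 with an adjusted p of 0.89.

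Levels of different biotypes were set against each other per length of exon. This does not make short exons fully comparable with long ones. A read pair can reach past a short exon, and the median exon has 72 bases for tRNA and 84 for snoRNA. Their values per kb may thus be too high, which was not tested. Per kb of exon, rRNA reached 84.8 to 155 CPM in gpl-1 and 89.3 to 211 CPM in WT. Protein-coding exons came next, at 24.1 to 24.2 CPM per kb in gpl-1 and 24.1 CPM per kb in WT. snoRNA followed, at 8.67 to 9.30 CPM per kb in gpl-1 and 7.10 to 8.09 CPM per kb in WT. tRNA was at 7.83 to 7.92 CPM per kb in gpl-1 and 3.75 to 9.91 CPM per kb in WT, so snoRNA and tRNA were apart in gpl-1 and overlapped in WT. At the low end, transposable elements had 0.164 to 0.199 CPM per kb in gpl-1 and 0.177 to 0.187 CPM per kb in WT, and snRNA had 0.0652 to 0.121 CPM per kb in gpl-1 and 0.0568 to 0.0851 CPM per kb in WT. Between these were ncRNA, at 2.60 to 3.84 CPM per kb in gpl-1 and 3.50 to 4.24 CPM per kb in WT, then miRNA and then pseudogenes, which reached at most 1.55 CPM per kb in gpl-1 and 1.77 CPM per kb in WT. This order is for all exon bases as the divisor, and between tRNA and ncRNA it did not hold in every library. In WT replicates 1 and 2, ncRNA was at 4.24 and 4.18 CPM per kb, above tRNA at 3.76 and 3.75 CPM per kb. Over the bases that no other biotype shares, a divisor chosen after the values were seen, ncRNA was at 5.18 to 7.63 CPM per kb in gpl-1 and 6.96 to 8.43 CPM per kb in WT, and snoRNA at 9.60 to 10.3 CPM per kb in gpl-1 and 7.85 to 8.95 CPM per kb in WT, so the 2 biotypes overlapped in WT.

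**Figure D4:**
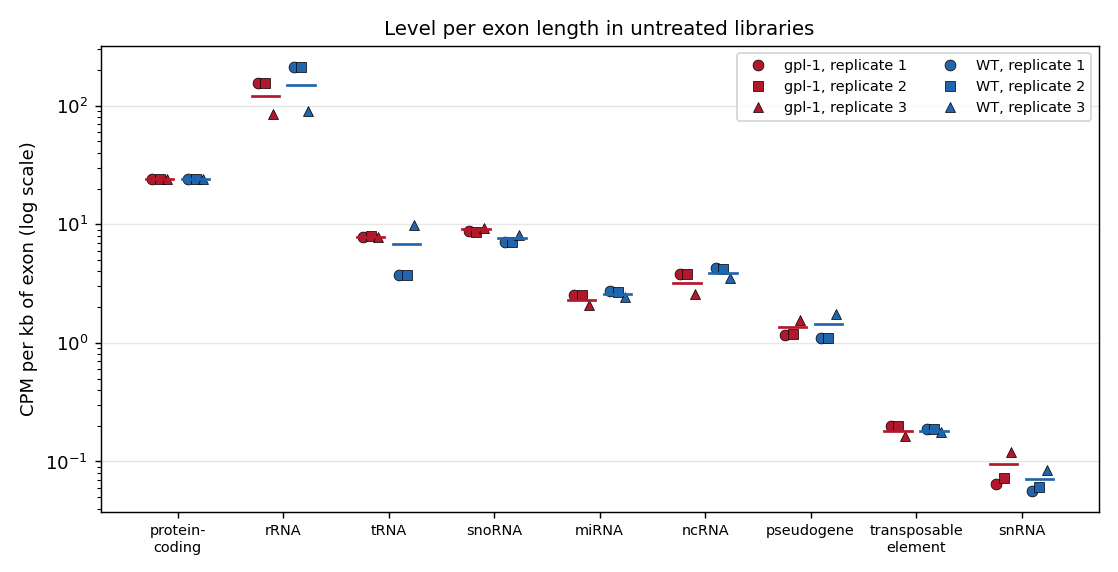
CPM per kb of exon for each biotype in the untreated libraries, on a log axis, with gpl-1 in red left of WT in blue; marker shapes give the replicate, and lines the mean over the 2 samples of a group. rRNA lies highest, at 84.8 to 211 CPM per kb over both genotypes, and snRNA lowest, at 0.0568 to 0.121.

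Whether the untreated difference changes with ABA was tested by the interaction, the log2 ratio of gpl-1 to WT with ABA minus that without. edgeR called 0 of 9 biotypes (0%), with 0 at an unadjusted p under 0.05, and DESeq2 also called 0. The interaction of snoRNA was -0.14 ± 0.51 with an adjusted p of 0.90. With ABA, the snoRNA log2 ratio was -0.19 in replicates 1 and 2 and 0.33 in replicate 3, so the common direction of its untreated samples was not present there. Nothing in the untreated comparison was thus shown to be particular to untreated seedlings.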

How the data were processed

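Paired-end RNA-seq of gpl-1 and WT seedlings, with and without ABA, was used. The authors deposited raw counts per gene biotype, made after Bowtie2 alignment to TAIR10 with featureCounts 2.0.1, which counted pairs with both mates mapped over exons without strand (setting 0), without chimeric pairs and with marked duplicates kept. Unstranded counting can give antisense reads to the wrong biotype. The counts are not normalized. Each count column of gpl-1 is headed UP, a name no source explains, so files were assigned by their sample records. Gene-level values were not used.

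Replicates 1 and 2 of each group were summed. Counts were tested with edgeR 4.0.16 (quasi-likelihood, library totals as offset, all 4 groups, 8 samples, Benjamini-Hochberg over 9 biotypes, threshold 0.05). The procedure was tried on simulated data with larger changes and a smaller spread than estimated here, so the simulation does not show its power for these data. Exact permutation tests used scipy 1.17.1. No difference in biotypes can pass such a permutation test, since 3 against 3 cannot go below a p of 0.10 and 2 against 2 not below 0.33. Alternatives were separate libraries, TMM factors, totals without rRNA, DESeq2 1.42.0, a minimum of 100 counts, untreated samples alone, a replicate block and each library left out. The rule for named items was to describe every biotype and to name loci only as annotation. The biotypes, tests and comparison were chosen with earlier results of these data known. Exons of the files were matched to RefSeq genes of TAIR10.1 by coordinates, which gave 71 of 71 snoRNA, 11 of 15 rRNA and 8 of 13 snRNA exons. The mitochondrial sequence was not compared. R 4.3.3, Python 3.11.15, numpy 2.4.6, pandas 2.3.3 and matplotlib 3.10.9 were used.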

Additional observations from a re-analysis of the deposited data

Results flagged for a closer look

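For 2 of the 9 biotypes the log2 ratios of both samples had one sign without ABA and the other sign with ABA. The log2 ratios of rRNA, gpl-1 over WT, were 0.59 and 0.22 with ABA, against -0.45 and -0.07 without it (replicates 1 and 2 summed, then replicate 3), and the interaction was 0.77 ± 0.70, with an adjusted p of 0.77 in edgeR's quasi-likelihood test. The log2 ratios of snRNA were -0.96 and -0.19 with ABA, against 0.23 and 0.51 without it, and the interaction was -0.97 ± 0.60 with an adjusted p of 0.77, on 10 to 27 counts per library. The counting intervals of the snRNA ratios included 0 in both samples without ABA and in replicate 3 with ABA. Neither the rRNA nor the snRNA interaction passed the test.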

How the results depend on the processing

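Between gpl-1 and WT without ABA 0 biotypes were called under each of the 20 settings tried, and 0 interactions under each of 18, including the 12 that left out 1 library each (0 to 0). One of the 20, the exact permutation test, could not have called any, and leaving out replicate 1 or 2 changes the fit little, since they are summed. The lowest adjusted p over these fits was 0.26 for the comparison and 0.096 for the interaction. Where a group was left with 1 sample, it was assumed to vary like the other groups. snoRNA (0.20 to 0.35), tRNA (0.20 to 1.06), miRNA (-0.23 to -0.021) and ncRNA (-0.39 to -0.018) kept the sign of their log2 ratio under every fit. No fit left out replicates 1 and 2 of a group together. The tRNA log2 ratio was -0.34 in replicate 3 alone, so its kept sign does not show a direction shared by both samples. Other signs turned. As single libraries were left out, the log2 ratio ranged over -0.82 to 0.044 for rRNA, -0.020 to 0.62 for snRNA, -0.042 to 0.13 for transposable elements, -0.29 to 0.30 for pseudogenes and -6.0e-05 to 0.0024 for protein-coding genes. The turned value came without WT replicate 3 for pseudogenes and without gpl-1 replicate 3 for the others. With 3 libraries per group as separate samples it was 0.027 for transposable elements, and with DESeq2 it was -0.011 for protein-coding genes. The interaction ranged over -0.94 to 0.19 for tRNA, -0.17 to 0.46 for pseudogenes and -0.060 to 0.17 for transposable elements as libraries were left out, and was -0.065 for transposable elements with DESeq2. These values were not called, and the cause was not tested. The replicate numbers were not taken as pairs, because the deviations of replicate 3 from replicates 1 and 2 correlated at 0.79 between gpl-1 and WT, but over the 6 pairs of groups at 0.0029, 0.076, 0.30, 0.37, 0.51 and 0.79 (8 biotypes), not in every pair above the 0.1 required. With the replicate block edgeR called 0 biotypes and 0 interactions, although the SE was 0.22 for rRNA, against 0.49 without the block, and 0.24 for snRNA, against 0.42. With the block, at an unadjusted p under 0.05 it gave 2 interactions, of rRNA and snRNA. Fitting libraries as separate samples gave 1, of snRNA. Without WT replicate 3, rRNA passed an unadjusted p of 0.05 in the comparison (-0.82, p of 0.036) and in the interaction (1.26, p of 0.015), with adjusted p-values of 0.26 and 0.14 in edgeR. Replicates 1 and 2 of gpl-1 with ABA, at 2.31, exceeded the limit of 1.94 for sampling noise and were summed all the same, and those of WT with ABA gave 0.82. Depth limits snRNA, and the Wilson intervals of the nearest snoRNA libraries of the genotypes overlapped.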
